A study of Mus musculus with 12 samples.

Results

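The cytosolic ribosomal protein genes encode the proteins of the small and large subunits of the ribosome that translates nuclear messages. They were taken by symbol: protein-coding genes named Rps or Rpl with a number and an optional letter or l suffix, with Rpsa, Rplp0, Rplp1 and Rplp2 added, and with ribosomal S6 kinases and pseudogenes left out. This gave 81 of the 56748 gene IDs in the count tables, 31 of the small and 50 of the large subunit. Their transcripts were followed in natural killer (NK) cells, innate lymphocytes that kill infected and malignant cells, obtained by sorting from lymph nodes of mice. Messages were measured by poly(A) RNA sequencing in 12 libraries, 4 per group. The hematogenous group came from tumor-bearing nodes in a blood-borne model of diffuse large B cell lymphoma. The lymphatic group came from tumor-bearing nodes in a model of the same lymphoma spread by the lymphatic route. The tumor free group came from nodes of C57BL/6J mice without tumor. The labels give no age, time point or tumor cell line, and no strain for the tumor-bearing mice, and no agent or allele in any group. They number the libraries 1 to 4 in each group but name no separate animals, so p-values here measure the spread between libraries, which may be technical.

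A ribosome holds a single copy of nearly every ribosomal protein, and cells make these proteins in matched amounts. Their messages are among the most abundant in a lymphocyte. Most begin with a 5-prime terminal oligopyrimidine tract, a cytosine at the cap followed by a run of C and T, through which the kinase complex mTORC1 and the RNA-binding protein Larp1 control their translation and stability. Resting lymphocytes hold few active ribosomes and make more when they are activated. Some members have a copy with a restricted pattern in the mouse: Rpl3l in heart and skeletal muscle, and Rpl10l and Rpl39l in testis.

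The start of a message carries the tract, so the 30 bases around the RefSeq start are shown for 6 members that were lower in the hematogenous than in the tumor free libraries and 4 with small fold changes there. They are read on the strand of the gene, from 10 bases before the start, in the RefSeq promoter table of build GRCm38.p6. Capitals mark the part of the longest run of C or T that lies in the window. Rps26 (chr10:128626487-128626516, minus strand), Rplp2 (chr7:141447641-141447670, plus), Rpl10a (chr17:28328461-28328490, plus), Rpl41 (chr10:128549149-128549178, minus), Rpl28 (chr7:4792955-4792984, plus) and Rpl15 (chr14:18270967-18270996, minus) were called lower. Rps27 (chr3:90213629-90213658, minus), Rps6 (chr4:86857348-86857377, minus), Rpl23 (chr11:97782420-97782449, minus) and Rpl4 (chr9:64173377-64173406, plus) had the smallest fold changes among members with a window.
Rps26: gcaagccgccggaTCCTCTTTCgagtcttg
Rplp2: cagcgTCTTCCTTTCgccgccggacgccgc
Rpl10a: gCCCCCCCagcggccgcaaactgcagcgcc
Rpl41: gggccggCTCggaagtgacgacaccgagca
Rpl28: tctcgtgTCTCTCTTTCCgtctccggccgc
Rpl15: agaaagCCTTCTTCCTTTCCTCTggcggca
Rps27: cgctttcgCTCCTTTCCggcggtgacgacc
Rps6: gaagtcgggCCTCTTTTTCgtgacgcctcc
Rpl23: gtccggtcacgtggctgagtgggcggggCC
Rpl4: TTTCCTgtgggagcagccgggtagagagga

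Runs of 9 or more C or T stood in or across the windows of both sets, in Rps26, Rplp2, Rpl28 and Rpl15 as in Rps27, Rps6 and Rpl4. The table matched 61 of the 81 members, with 73 start sites. A run of at least 8 C or T on the gene's strand overlapped the window at 31 of these 73 sites (42.5%), against 16.9% of all 32851 start sites in the table. At a run of at least 10 the shares were 32.9% of member sites and 8.41% of all sites. The annotated first base was C at 27.4% of member sites and at 16.3% of all sites. A run is a description of these letters, and annotated starts can lie some bases away from the cap.

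Depth ran from 6654215 to 43494812 counts on genes per library. All 10 NK cell markers checked, Ncr1, Klrb1c, Prf1 and Eomes among them, had counts in every library. Their summed level was 6766 to 8280 CPM (gene counts scaled to a common library size, as in all values below) in the hematogenous, 9597 to 11583 CPM in lymphatic and 10902 to 12652 CPM in tumor free libraries. Other markers moved with the groups too. The list of group 2 and 3 innate lymphoid cells summed to 958 to 2043 CPM in the hematogenous, 385 to 630 CPM in lymphatic and 396 to 501 CPM in tumor free libraries, most of it Il7r. The T cell list summed to 421 to 556 CPM in the hematogenous, 228 to 412 CPM in lymphatic and 195 to 331 CPM in tumor free libraries. The B cell list summed to 185 to 321 CPM in the hematogenous, 197 to 574 CPM in lymphatic and 82.9 to 247 CPM in tumor free libraries. Reads that fell outside any annotated feature were 17.5% to 24.6% of reads in the hematogenous, 13.9% to 17.4% in the lymphatic and 11.4% to 21.1% in the tumor free libraries. The part of cell makeup and read quality in the results that follow was not tested, apart from a fit with the B cell markers as a covariate. In bulk RNA, fewer cells of a type and less RNA per cell cannot be told apart.

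Ribosomal protein genes took the smallest share of counts in the hematogenous group. The 4 hematogenous libraries had 2.51%, 4.76%, 3.65% and 4.36% of their gene counts on the 81 members. The lymphatic libraries had 5.48%, 5.12%, 3.78% and 5.39%, and the tumor free libraries 5.40%, 6.09%, 4.51% and 5.31%. The means were 3.82% ± 0.988 in the hematogenous, 4.94% ± 0.793 in the lymphatic and 5.33% ± 0.648 in the tumor free group (SD, n = 4 each). Hematogenous library 1 was the lowest of all 12, and the hematogenous and tumor free ranges overlapped through hematogenous library 2 and tumor free library 3. The division between the subunits hardly varied: small subunit genes held 42.6% to 44.8% of the members' counts in every library.

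**Figure D1:**
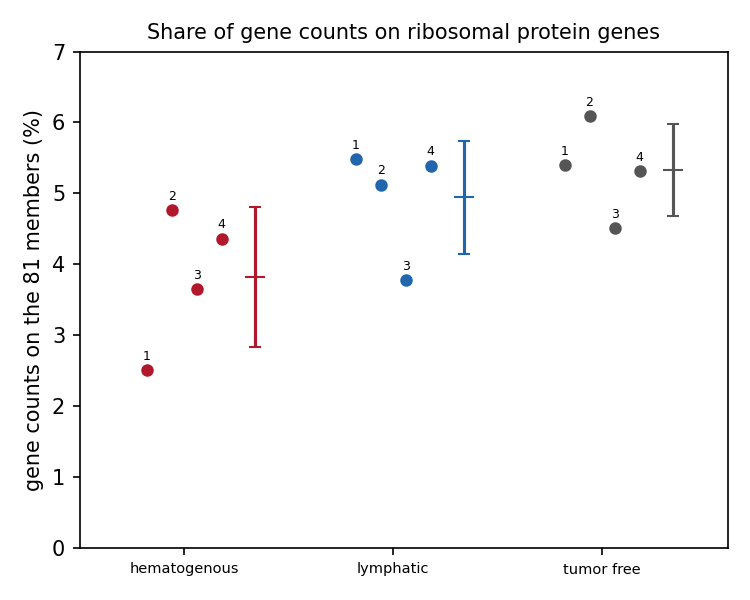
Share of gene counts on the 81 ribosomal protein genes (y axis, %) in each library (points, numbered by replicate), with the mean and SD of 4 libraries per group (bars). The hematogenous libraries span 2.51% to 4.76%, the lymphatic 3.78% to 5.48% and the tumor free 4.51% to 6.09%.

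Per length, the members differed widely in level although most of their proteins are needed in equal number. Rps27, a zinc finger protein of the small subunit, had the highest mean level over the 12 libraries at 3046 CPM per kb of transcript, followed by Rps14 at 1699 and Rps18 at 1647 CPM per kb, both small subunit proteins. Rpl36al, a copy of Rpl36a, stood at 53.7 and Rps27l, a copy of Rps27, at 62.5 CPM per kb. Rpl39l had 75 counts over 8 libraries (0.741 CPM per kb), Rpl3l had 13 counts, all in lymphatic library 1, and Rpl10l had none. A count of 0 in all 12 libraries does not show that Rpl10l is absent. Members with near-identical copies or processed pseudogenes are uncertain in level where reads align to several places, and such reads were 3.85% to 6.48% of all reads in a library. The 297 named ribosomal protein pseudogenes held 0.0678% to 0.158% of gene counts.

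Of the 81 members, 79 passed the filter on low counts and 78 of these had a mean of at least 5 CPM. Rpl10l and Rpl3l were not tested.

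In hematogenous NK cells, 32 of the 79 tested ribosomal protein genes were lower than in tumor free NK cells and none was higher (edgeR quasi-likelihood test, Benjamini-Hochberg adjusted p under 0.05 over all 16016 genes tested). No member was higher at an unadjusted p under 0.05 either, where 2683 of all 16016 genes were, nor by DESeq2. Of all genes tested, 6.87% were called lower and 9.52% higher in this comparison. The lower members were 11 of 31 in the small and 21 of 48 in the large subunit. Their log2 fold changes ran from −0.52 to −1.93. Over all 79 members the median log2 fold change was −0.52, against 0.08 over all genes, and 78 members lay below 0. Hematogenous and tumor free libraries did not overlap for 26 members, all lower in the hematogenous group (32.9%, against 8.01% of all genes lower without overlap). The count of 32 leaned on single libraries. It was 20 without hematogenous library 1, 16 without hematogenous library 3, and 20, 15 and 21 without tumor free libraries 1, 2 and 4. In these fits 4.88%, 4.3%, 5.7%, 5.16% and 5.59% of all genes were called lower. The count of members was 7 with hematogenous libraries 1 and 3 both left out (1.72% of all genes), when the median was −0.22 and 74 members lay below 0. With the B cell markers as a covariate it was 12 (3.54% of all genes). All of the 6 genes Rps26, Rplp1, Rplp2, Rps29, Rpl10a and Rpl29 were called under each of the 31 alternative settings.

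Rps26, which lies by the channel where the message leaves the small subunit, had the smallest adjusted p. Its level was 120, 184, 124 and 197 CPM in the hematogenous libraries, against 322, 431, 296 and 404 CPM in the tumor free libraries. Every hematogenous library lay below every tumor free one (log2 fold change −1.22 with SE 0.168, edgeR adjusted p = 0.00013). With hematogenous libraries 1 and 3 left out the log2 fold change was −0.93. Another small subunit protein, the zinc-binding Rps29, had 93.8, 262, 124 and 303 CPM in the hematogenous and 542, 630, 518 and 561 CPM in the tumor free libraries. Its groups were also apart, with hematogenous libraries 1 and 3 lowest (log2 fold change −1.52 with SE 0.324, edgeR adjusted p = 0.00704).

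The P stalk, the mobile arm of the large subunit that recruits the elongation factors, is built from Rplp0, Rplp1 and Rplp2, and all of its genes fell in the hematogenous group. Rplp1 had 195, 420, 222 and 468 CPM in the hematogenous and 780, 1165, 774 and 871 CPM in the tumor free libraries. Rplp2 had 122, 233, 151 and 222 CPM in the hematogenous and 348, 490, 383 and 465 CPM in the tumor free libraries. In both genes the highest hematogenous library stayed well under the lowest tumor free one. The log2 fold change was −1.46 for Rplp1 (SE 0.235, edgeR adjusted p = 0.000626) and −1.21 for Rplp2 (SE 0.172, edgeR adjusted p = 0.000166). Without hematogenous libraries 1 and 3 these were −1.01 and −0.89. Rplp0, the base of the stalk, had 442, 1058, 522 and 1011 CPM in the hematogenous and 1214, 1359, 1157 and 1240 CPM in the tumor free libraries. Its fall was smaller and rested on the same libraries: the log2 fold change was −0.71 (SE 0.212, edgeR adjusted p = 0.0265), and −0.26 (adjusted p = 0.321) without hematogenous libraries 1 and 3. Its call was also lost without hematogenous library 1 or 3 alone and without tumor free library 1, 2 or 4, at an adjusted p of up to 0.0969.

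**Figure D2:**
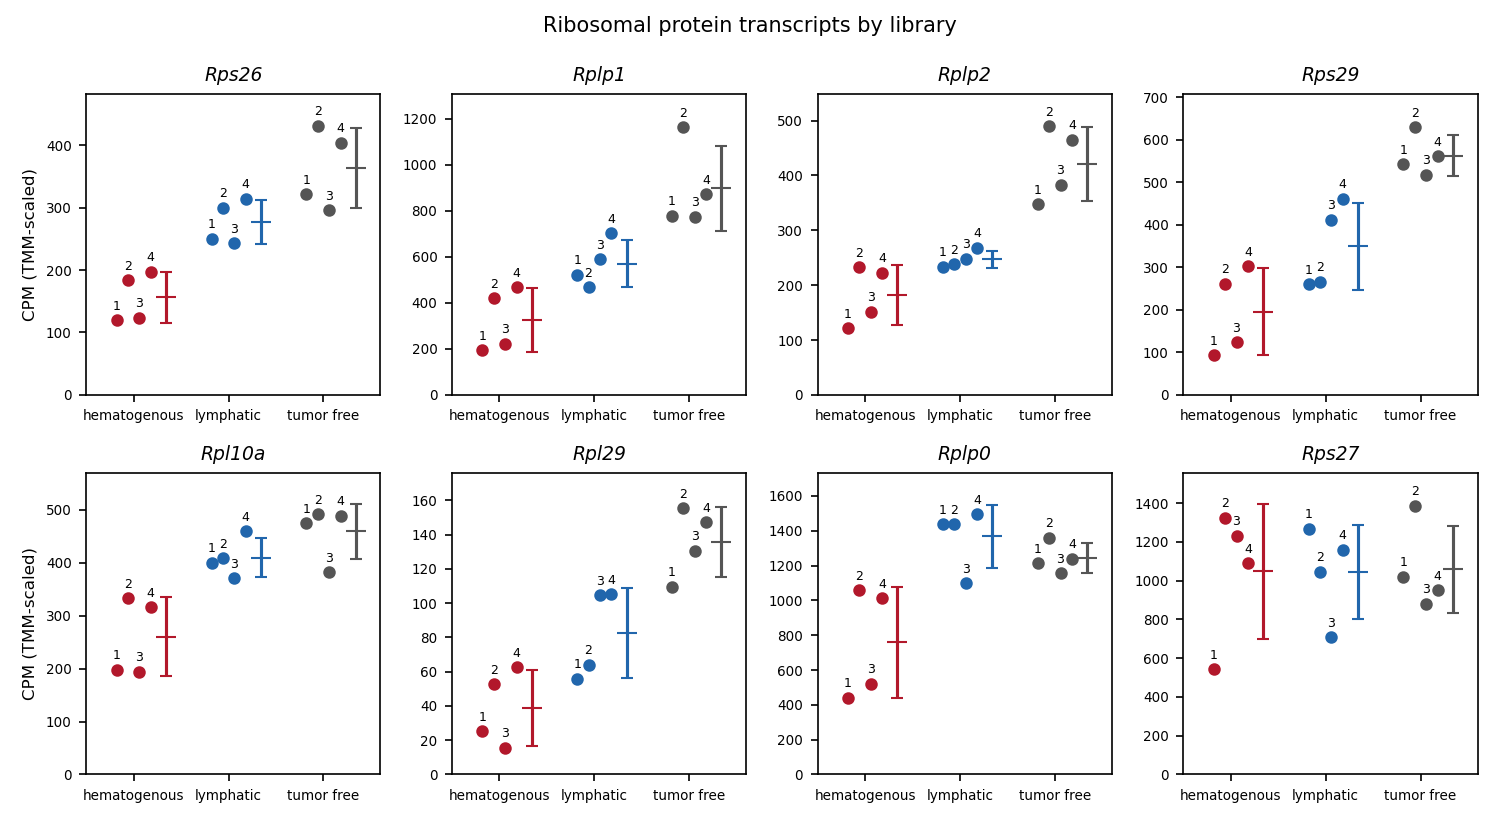
TMM-scaled CPM (y axis, from 0) of 8 ribosomal protein genes in each library (points, numbered by replicate), with the mean and SD of 4 libraries per group (bars). In the first 6 genes the hematogenous libraries all lie under the tumor free ones, in Rplp0 hematogenous libraries 1 and 3 stand apart from 2 and 4, and in Rps27 the hematogenous mean is 1048 and the tumor free mean 1060 CPM.

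Among other large subunit members, Rpl10a, which forms the L1 stalk beside the tRNA exit site, had 198, 333, 194 and 316 CPM in the hematogenous and 474, 492, 382 and 489 CPM in the tumor free libraries. The groups did not overlap (log2 fold change −0.82 with SE 0.162, edgeR adjusted p = 0.00221). Rpl29 had 25.1, 52.8, 15.6 and 62.5 CPM in the hematogenous and 109, 155, 130 and 147 CPM in the tumor free libraries, a log2 fold change of −1.79 (with SE 0.359, edgeR adjusted p = 0.00449). Rpl36 had the largest fall of any tested member, at 29.8, 117, 28.5 and 122 CPM in the hematogenous and 259, 381, 221 and 274 CPM in the tumor free libraries (log2 fold change −1.93 with SE 0.476, edgeR adjusted p = 0.018). Hematogenous libraries 2 and 4 lay far above libraries 1 and 3, and the call was lost without tumor free library 2 (adjusted p = 0.0577).

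Rpl41, a very short protein that bridges the subunits, had 282, 538, 281 and 549 CPM in the hematogenous and 739, 1006, 655 and 758 CPM in the tumor free libraries. Rpl28, which budding yeast lacks, had 185, 408, 250 and 416 CPM in the hematogenous and 543, 593, 527 and 633 CPM in the tumor free libraries. Both were lower in every hematogenous library, with log2 fold changes of −0.94 for Rpl41 and −0.87 for Rpl28 (SE 0.204 and 0.19, edgeR adjusted p = 0.00418 and 0.00446). Neither was called without hematogenous libraries 1 and 3, and Rpl28 was not called with the GC trend removed (adjusted p = 0.0617). Rpl10, which joins the large subunit late in its assembly near the catalytic center, had 295, 589, 480 and 542 CPM in the hematogenous and 926, 895, 674 and 703 CPM in the tumor free libraries (log2 fold change −0.75 with SE 0.178, edgeR adjusted p = 0.0075). Rpsa, a small subunit protein once described as a laminin receptor, had 541, 1128, 657 and 1027 CPM in the hematogenous and 1415, 1542, 1264 and 1420 CPM in the tumor free libraries (log2 fold change −0.75 with SE 0.179, edgeR adjusted p = 0.00767). Without hematogenous libraries 1 and 3 neither was called, at log2 fold changes of −0.50 for Rpl10 and −0.39 for Rpsa (edgeR adjusted p = 0.0982 and 0.116). Rps19, the small subunit gene most often mutated in human Diamond-Blackfan anemia, had 159, 352, 249 and 338 CPM in the hematogenous and 419, 435, 359 and 405 CPM in the tumor free libraries. Its difference was close to the threshold (log2 fold change −0.56 with SE 0.184, edgeR adjusted p = 0.044), and it was not called without hematogenous library 1 or 3, tumor free library 1, 2 or 4, or lymphatic library 1. With the GC trend removed its log2 fold change was −0.25 (adjusted p = 0.468). Rpl13a, known in human cells for release from the ribosome in response to interferon-gamma, had 53.2, 111, 51.4 and 123 CPM in the hematogenous and 138, 164, 122 and 148 CPM in the tumor free libraries, with hematogenous library 4 inside the tumor free range (log2 fold change −0.75 with SE 0.231, edgeR adjusted p = 0.0324). It was not called without hematogenous library 1 or 3 or tumor free library 1, 2 or 4, nor with the GC trend removed (adjusted p = 0.0508).

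The remaining 47 tested members did not pass the threshold. They include the proteins that bind Mdm2, the inhibitor of p53, when ribosome assembly is disturbed. Rpl5 had 738, 1158, 1089 and 1033 CPM in the hematogenous and 1252, 1217, 986 and 1156 CPM in the tumor free libraries (log2 fold change −0.20 with SE 0.154, edgeR adjusted p = 0.426). Its partner in the 5S particle, Rpl11, averaged 548 ± 147 CPM in the hematogenous and 760 ± 90.3 CPM in the tumor free group (SD, n = 4 each; log2 fold change −0.47, edgeR adjusted p = 0.0631). Rpl23 averaged 722 ± 168 CPM in the hematogenous and 817 ± 108 CPM in the tumor free group (SD, n = 4 each; log2 fold change −0.18, edgeR adjusted p = 0.561). Rps6, the substrate of the S6 kinases downstream of mTORC1, had 378, 635, 545 and 585 CPM in the hematogenous and 655, 653, 554 and 557 CPM in the tumor free libraries, so that only hematogenous libraries 1 and 3 lay below the tumor free range (log2 fold change −0.17 with SE 0.161, edgeR adjusted p = 0.521). Rps27 had 544, 1326, 1231 and 1091 CPM in the hematogenous and 1021, 1386, 882 and 950 CPM in the tumor free libraries. Only hematogenous library 1 was low, and the log2 fold change was −0.02 (SE 0.226, edgeR adjusted p = 0.975). Rpl22, needed for alpha-beta T cell development in mice, averaged 295 ± 80.3 CPM in the hematogenous and 390 ± 50.5 CPM in the tumor free group (SD, n = 4 each; log2 fold change −0.40, edgeR adjusted p = 0.143). Rps4x, Rps15a, Rps14 and Rps18, all of the small subunit, had log2 fold changes of −0.35, −0.28, −0.52 and −0.55 (edgeR adjusted p = 0.158, 0.321, 0.0821 and 0.059).

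**Figure D3:**
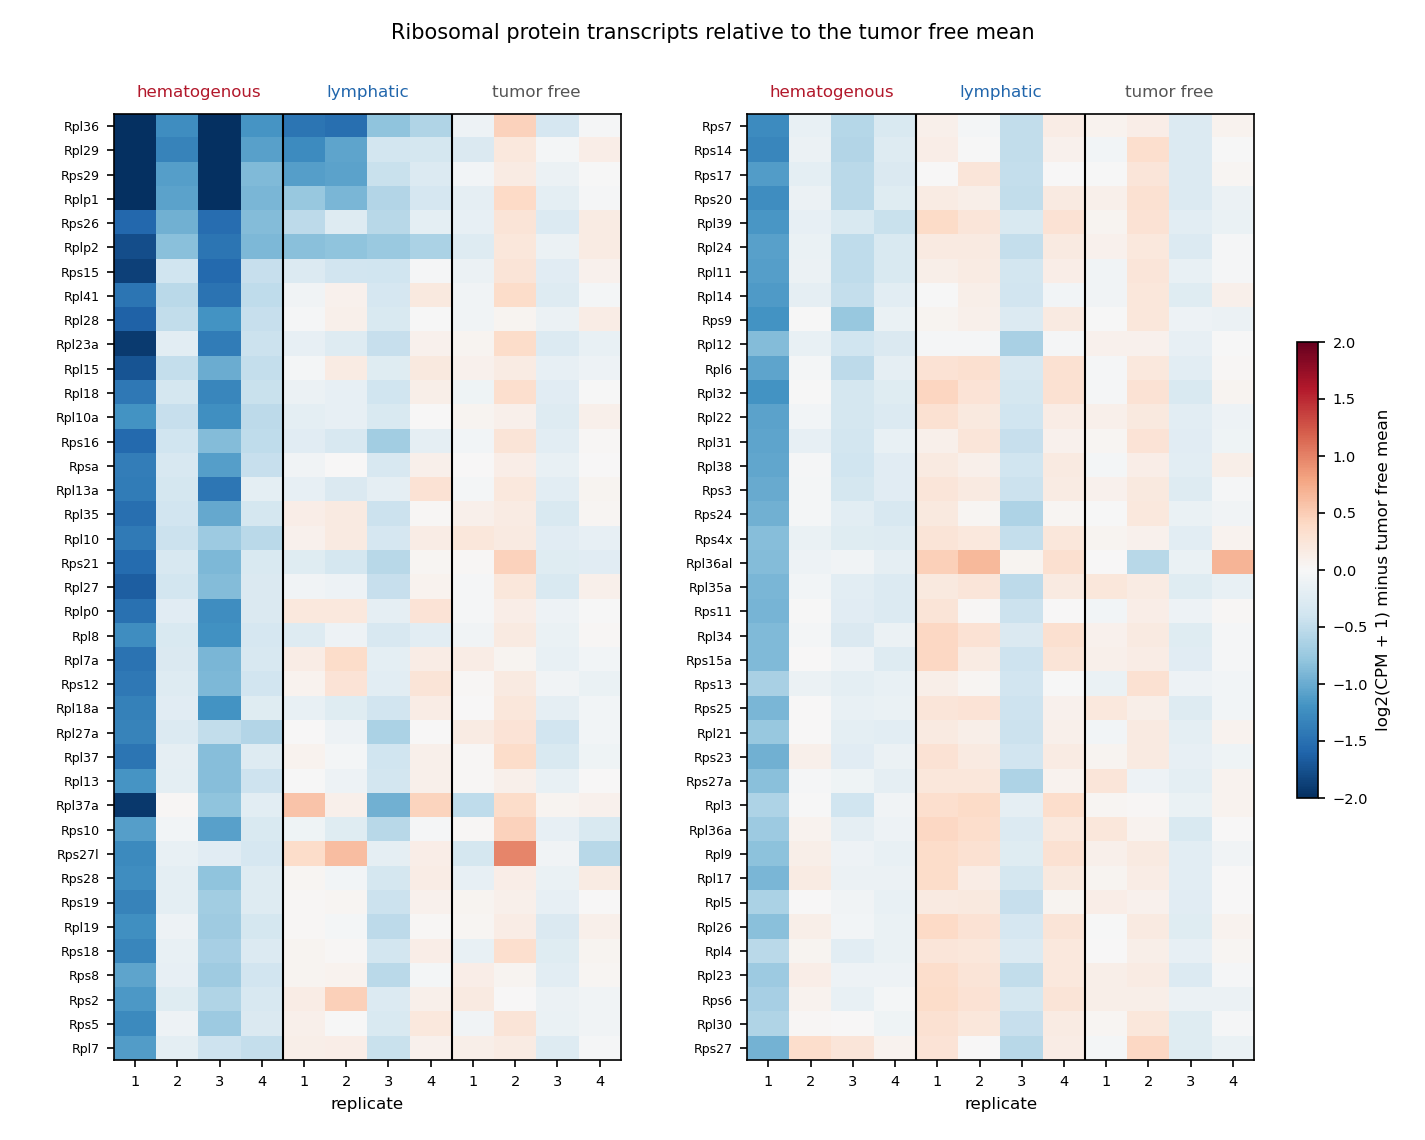
Level of each of 78 ribosomal protein genes (rows, ordered by the hematogenous minus tumor free log2 fold change) in each of the 12 libraries (columns), as log2(CPM + 1) minus the tumor free mean; colors are capped at −2 and 2. By CPM, hematogenous library 1 is the lowest of the 12 in 73 rows and hematogenous library 3 in 5, though capped cells of a row share a color. Hematogenous libraries 2 and 4 are clearly blue mainly in the top rows.

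The members moved together within libraries as well as between groups. Of the 78 members with a mean of at least 5 CPM, 73 were lowest of all 12 libraries in hematogenous library 1 and 5 in hematogenous library 3. The highest library was tumor free 2 for 36 members, lymphatic 1 for 19, lymphatic 2 for 10, lymphatic 4 for 6, tumor free 1 for 4 and tumor free 4 for 3. Replicate 3 was the lowest of the lymphatic group for 72 members and of the tumor free group for 68. The median over members of the SD as a percentage of the mean was 28.8% in the hematogenous and 13.1% in the tumor free group, with the lymphatic group between them. Hematogenous library 1 had the largest share of reads outside features (24.6%) and of unaligned reads (14.6%) of the 12. In that library genes with transcripts under 1000 bases lay 0.46 below genes of at least 3000 bases, as a difference of median log2 deviations, against −0.08 to 0.26 in the other 11 libraries. The part of these measures in the members' levels was not tested, beyond the fit with the gene length trend removed. In that fit 26 of the 79 members were lower in the hematogenous than in the tumor free group, against 6.51% of all genes. Of these 26, 23 were among the 32, and the median over the members was −0.37.

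The size of the fall varied with the base composition of the members' transcripts. Of 16 members with a GC content of at least 55%, 14 were lower in the hematogenous than in the tumor free libraries, with a median log2 fold change of −0.79. Of 37 members between 50% and 55% it was 15, with a median of −0.52, and of 26 members under 50% it was 3 (Rps26, Rpl27a and Rpl7), with a median of −0.35. The share of all genes called within each GC range was not computed, so these counts have no background of like GC content beside them. Across the 79 members the log2 fold change and GC content had a Pearson r of −0.55 and a Spearman rho of −0.58. These describe genes read in the same libraries, which are no independent replicates. Over 15657 tested genes with a known GC content the values were −0.11 and −0.17. Libraries differed in this respect across all genes. The median log2 deviation of 3532 genes of at least 55% GC, minus that of 3753 genes under 45%, was −0.20, −0.06, −0.47 and 0.04 in the hematogenous, −0.19, −0.10, 0.22 and −0.04 in the lymphatic and 0.04, 0.31, 0.19 and 0.30 in the tumor free libraries. With the GC trend of all genes removed from each library, 18 of the 79 members were lower, all among the 32, and the median over the 79 was −0.42. With both the GC and the length trend removed 22 were lower, 19 of them among the 32, and the median was −0.31. Of all genes, 5.91% were lower with the GC trend removed and 5.98% with both trends removed. Rps26, at 48.6% GC, kept its log2 fold change with the GC trend removed (−1.25).

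**Figure D4:**
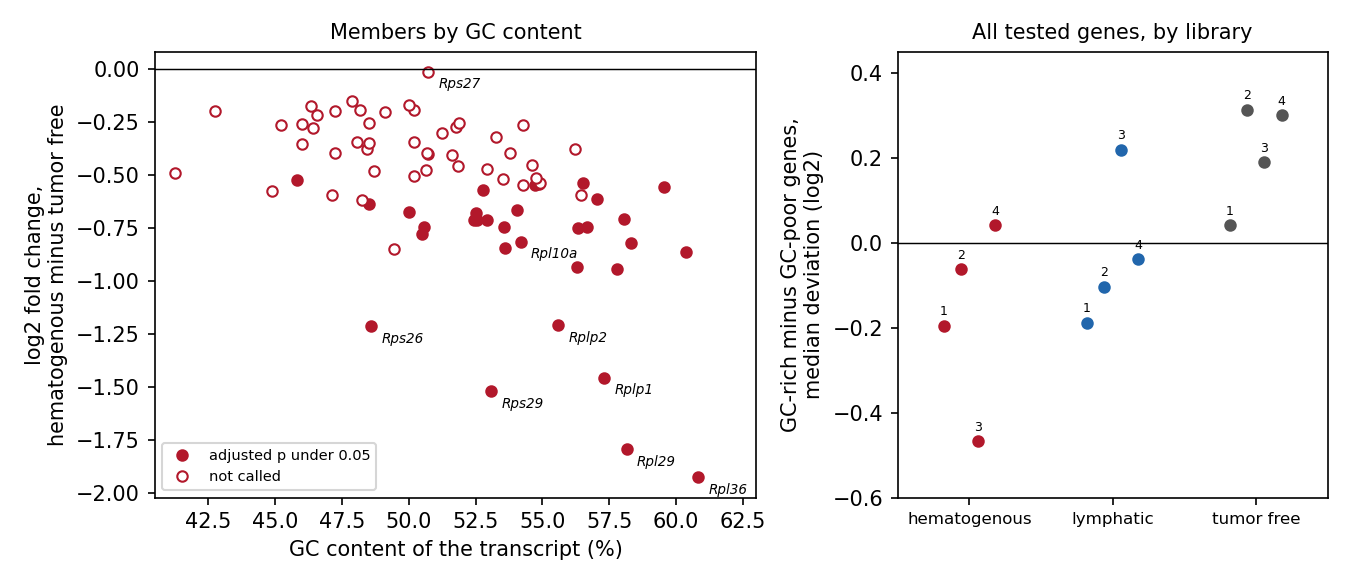
Left, log2 fold change hematogenous minus tumor free (y axis) against the GC content of the transcript in % (x axis) for 78 ribosomal protein genes (filled, edgeR adjusted p under 0.05). Right, median log2 deviation of genes of at least 55% GC minus that of genes under 45% (y axis) in each library (numbered by replicate). Members of at least 55% GC are called in 14 of 16 cases, and hematogenous library 3 has the lowest value on the right, −0.47.

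In lymphatic NK cells the ribosomal protein genes stood close to the tumor free level. Of the 79 tested, 1 was lower, Rplp2, and none was higher (edgeR adjusted p under 0.05, against 0.418% of all genes lower and 2.32% higher). At an unadjusted p under 0.05, 4 were lower and none higher, against 548 lower and 1641 higher of all 16016 genes. The median log2 fold change was −0.01, against 0.08 over all genes, and 70 of 78 members lay within 0.3 of 0. This comparison uses the same tumor free libraries as the hematogenous one, so the values of both are not independent.

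Rplp2 had 233, 238, 248 and 268 CPM in lymphatic and 348, 490, 383 and 465 CPM in tumor free libraries. The lymphatic libraries were tightly grouped and all below the tumor free ones (log2 fold change −0.77 with SE 0.17, edgeR adjusted p = 0.0146). The call was lost without lymphatic library 1 (adjusted p = 0.0529) and with the B cell markers as a covariate (adjusted p = 0.206), and it held in the other 29 of 31 alternatives. The groups also did not overlap for Rplp1, Rps29, Rpl29 and Rpl36, so that this held for 5 of 79 members in all (6.33%, against 2.24% of all genes lower without overlap). Rplp1 had 522, 468, 589 and 704 CPM in the lymphatic libraries, against the tumor free values above, a log2 fold change of −0.65 (with SE 0.231, edgeR adjusted p = 0.175). Rps29 had 261, 266, 412 and 462 CPM in the lymphatic libraries (log2 fold change −0.69 with SE 0.318, edgeR adjusted p = 0.366). Rpl29 had 55.9, 64.1, 104 and 105 CPM and Rpl36 had 100, 96.8, 159 and 182 CPM in the lymphatic libraries, with log2 fold changes of −0.72 and −1.08 (edgeR adjusted p = 0.388 and 0.331). In Rps29, Rpl29 and Rpl36 lymphatic libraries 1 and 2 were low and 3 and 4 closer to the tumor free range.

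At the other end, Rpl36al had 37.4, 42.0, 27.6 and 33.2 CPM in lymphatic and 26.8, 17.8, 24.1 and 42.9 CPM in tumor free libraries, and the ranges overlapped (log2 fold change 0.34 with SE 0.252, edgeR adjusted p = 0.645). Rpl3, a core protein near the catalytic center, had 1526, 1573, 1060 and 1539 CPM in lymphatic and 1235, 1224, 1099 and 1273 CPM in tumor free libraries, with lymphatic library 3 alone at the bottom (log2 fold change 0.24 with SE 0.146, edgeR adjusted p = 0.535). Rpl34 averaged 606 ± 121 CPM in lymphatic and 528 ± 64.4 CPM in tumor free group (SD, n = 4 each; log2 fold change 0.20, edgeR adjusted p = 0.696).

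**Figure D5:**
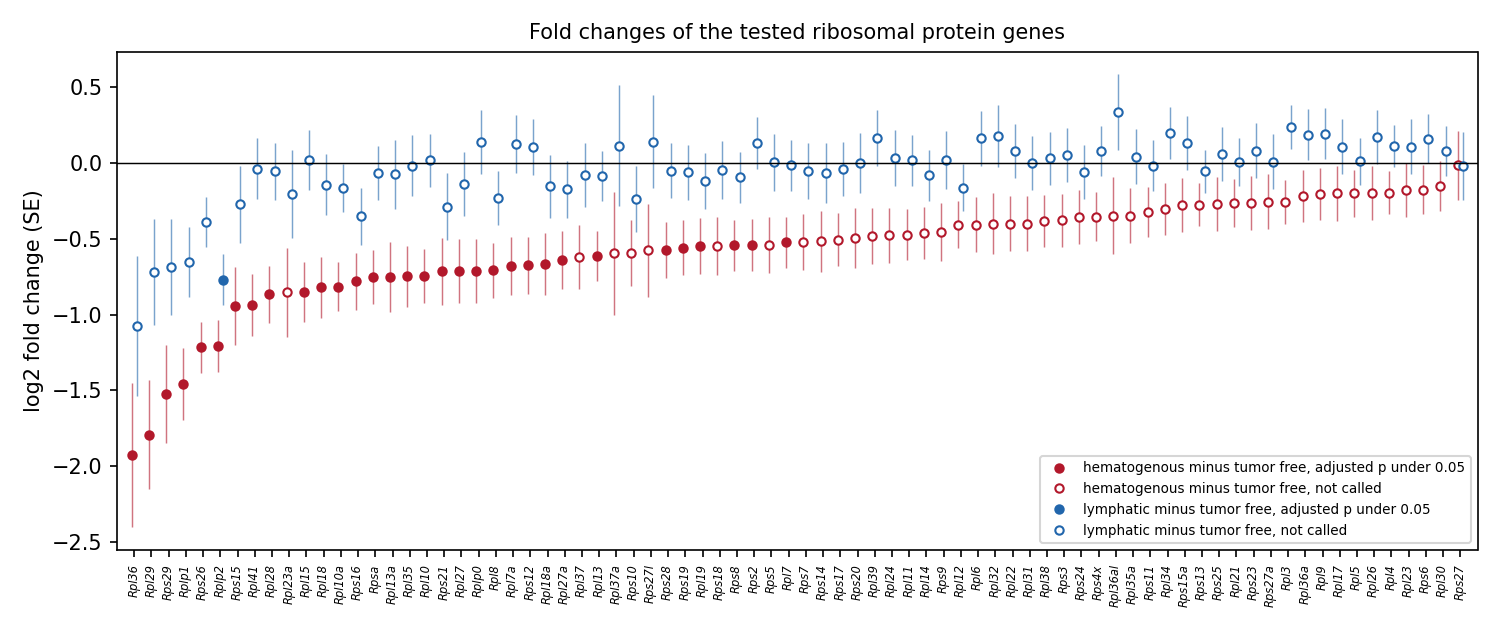
Log2 fold change (y axis, with its SE) of 78 ribosomal protein genes (x axis) in hematogenous minus tumor free (red) and lymphatic minus tumor free (blue); filled points have an edgeR adjusted p under 0.05. Red points lie below 0 for all 78 genes, 32 of them filled, while the blue points lie around 0 apart from genes at the left and have 1 filled, Rplp2.

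Set directly against lymphatic NK cells, hematogenous NK cells had 16 of the 79 members lower and none higher (edgeR adjusted p under 0.05, against 5.92% of all genes lower and 2.93% higher). Of these, 4 belonged to the small and 12 to the large subunit. The median log2 fold change over the members was −0.49, against −0.01 over all genes, and 77 members lay below 0. The groups did not overlap for 13 members, lower in the hematogenous group (16.5%, against 11.3% of all genes). This count depended more on single libraries than that against tumor free. It was 7 without hematogenous library 1, 1 without hematogenous library 3, 3 without lymphatic library 2, 9 without lymphatic library 4 and 35 without lymphatic library 3. In these fits 2.6%, 2.18%, 2.59%, 4.25% and 5.63% of all genes were called lower. With hematogenous libraries 1 and 3 both left out the count of members was 0 (0.486% of all genes), the median was −0.19 and 76 members lay below 0. At an unadjusted p under 0.05, 13 members were lower there, for which no share of all genes was computed. The 16 genes were Rpl10, Rpl10a, Rpl15, Rpl18, Rpl28, Rpl3, Rpl35, Rpl39, Rpl41, Rpl7a, Rplp0, Rplp1, Rps12, Rps2, Rps26 and Rpsa. The hematogenous libraries are the same as in the comparison with tumor free.

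Rps26 was called under every single left-out library. It had 120, 184, 124 and 197 CPM in the hematogenous and 250, 300, 243 and 314 CPM in the lymphatic libraries, without overlap (log2 fold change −0.83 with SE 0.166, edgeR adjusted p = 0.0047). Rpl15, a large subunit protein, had 68.8, 165, 115 and 165 CPM in the hematogenous and 224, 258, 194 and 264 CPM in the lymphatic libraries (log2 fold change −0.87 with SE 0.198, edgeR adjusted p = 0.00977). Rpl41 had 742, 831, 618 and 888 CPM in the lymphatic libraries, all above its hematogenous values (log2 fold change −0.90 with SE 0.203, edgeR adjusted p = 0.00933). Rpl28 had 566, 612, 464 and 568 CPM in the lymphatic libraries, again above every hematogenous one (log2 fold change −0.81 with SE 0.19, edgeR adjusted p = 0.0114). Rpl10 had 841, 896, 626 and 874 CPM and Rpl7a 520, 608, 411 and 521 CPM in the lymphatic libraries, against 168, 384, 249 and 375 CPM for Rpl7a in the hematogenous libraries, with log2 fold changes of −0.76 and −0.81 (edgeR adjusted p = 0.011 and 0.013). All of these but Rps26 lost the call without hematogenous library 3, and Rpl15, Rpl41, Rpl28 and Rpl7a also lost it without lymphatic library 2. Rpl3 had 782, 1199, 918 and 1149 CPM in the hematogenous libraries, overlapping the lymphatic ones only through lymphatic library 3 (log2 fold change −0.49 with SE 0.147, edgeR adjusted p = 0.0401), and it was called in 14 of 31 alternatives. Rps27 again did not differ beyond the spread, with means of 1048 ± 350 CPM in the hematogenous and 1045 ± 242 CPM in the lymphatic group (SD, n = 4 each; edgeR adjusted p = 0.997).

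By their means, the 3 groups were ordered differently for different members, though no test compared members. For Rplp2, Rplp1, Rps29, Rpl29 and Rpl36 the mean was lowest in the hematogenous, intermediate in the lymphatic and highest in the tumor free group. These are the 5 members whose lymphatic and tumor free libraries did not overlap, so their lymphatic mean had to lie under the tumor free one. Only Rplp2 of all members was called between lymphatic and tumor free. Of these 5 only Rplp1 was called between hematogenous and lymphatic. For Rplp2 the hematogenous and lymphatic means of 182 ± 54.1 and 247 ± 15.4 CPM did not differ beyond the spread (SD, n = 4 each; edgeR adjusted p = 0.121). For Rplp0, Rpl10 and Rpl15 the lymphatic mean was level with or above the tumor free one, and the hematogenous mean alone was low. Rplp0 averaged 758 ± 321 CPM in the hematogenous, 1367 ± 181 CPM in lymphatic and 1242 ± 85.2 CPM in tumor free group (SD, n = 4 each). Rplp0 and its stalk partners thus had different lymphatic values, although the difference between these genes was not tested.

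Members with a close copy could be compared with it. Rps27 is described above, and Rps27l, whose human form is induced by p53, had 12.2, 27.6, 26.3 and 24.2 CPM in the hematogenous, 40.1, 47.6, 27.1 and 33.9 CPM in lymphatic and 23.9, 61.5, 29.4 and 20.6 CPM in tumor free libraries. Tumor free library 2 was the highest of the 12, and no comparison passed (edgeR adjusted p = 0.225 against tumor free and 0.167 against lymphatic for the hematogenous group). Rpl39, which lines the exit tunnel, averaged 282 ± 76.9 CPM in the hematogenous, 443 ± 87.3 CPM in lymphatic and 395 ± 61.0 CPM in tumor free group (SD, n = 4 each), and only the difference between hematogenous and lymphatic passed (log2 fold change −0.65, edgeR adjusted p = 0.0322). It was lost without hematogenous library 1, 3 or 4, lymphatic library 1, 2 or 4, or tumor free library 1 or 4, and with DESeq2 size factors, upper quartile scaling or library size alone. Rpl39l never exceeded 19 counts in a library. Rpl36a averaged 255 ± 55.6 CPM in the hematogenous, 337 ± 66.7 CPM in lymphatic and 296 ± 43.7 CPM in tumor free group, and Rpl36al 21.8 ± 5.20, 35.1 ± 6.15 and 27.9 ± 10.7 CPM in these groups (SD, n = 4 each). Neither passed in any comparison (lowest edgeR adjusted p = 0.157 for Rpl36a and 0.103 for Rpl36al).

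Ribosomal proteins that the naming rule misses could be read beside the members. Fau, whose protein is a fusion of a ubiquitin-like domain with a small subunit protein, had 176, 359, 243 and 355 CPM in the hematogenous and 498, 699, 419 and 499 CPM in the tumor free libraries, without overlap (log2 fold change −0.90 with SE 0.197, edgeR adjusted p = 0.00436). The member Rps27a, a fusion of ubiquitin with a small subunit protein, averaged 358 ± 81.7 CPM in the hematogenous and 428 ± 56.9 CPM in the tumor free group (SD, n = 4 each; edgeR adjusted p = 0.38). Rack1, a signalling scaffold on the head of the small subunit, was lower in the hematogenous than in the lymphatic group (log2 fold change −0.48 with SE 0.149, edgeR adjusted p = 0.0492), as was Rpl7l1, named for its likeness to Rpl7 (log2 fold change −0.74 with SE 0.197, edgeR adjusted p = 0.0236). Rps3a1, Rpl22l1 and Rps27rt passed in no comparison.

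Other parts of the translation machinery were read from the same fit. The shares of all genes to set beside these counts are 6.87% lower and 9.52% higher for hematogenous against tumor free, 5.92% and 2.93% for hematogenous against lymphatic, and 0.418% and 2.32% for lymphatic against tumor free. Of 78 mitochondrial ribosomal proteins, 6 were lower and 1, Mrpl24, was higher in the hematogenous than in the tumor free group (median log2 fold change −0.35). Against the lymphatic group 5 were lower and Mrpl24 higher (median −0.40), and none passed in edgeR between lymphatic and tumor free. At an unadjusted p under 0.05, 4 were higher and 1 lower between lymphatic and tumor free, against 1641 and 548 of all 16016 genes. The lower shares in the hematogenous group, 7.69% and 6.41%, were near those of all genes and are no result about these genes. Of 18 other messages with a terminal oligopyrimidine tract, the elongation factor gene Eef2 (log2 fold change −0.53, edgeR adjusted p = 0.0171) and Eif3h (−0.52, adjusted p = 0.0249) were lower in the hematogenous than in the tumor free group, and 5, Npm1, Eef1d, Eef1g, Naca and Eif3h, were lower than in the lymphatic group. These shares were 11.1% and 27.8%, the first resting on only 2 genes. Hnrnpa1 was higher in the lymphatic than in the tumor free group (log2 fold change 0.48, edgeR adjusted p = 0.0367). Of 24 initiation factors, 4 were lower, Eif3d, Eif5a, Eif2s3x and Eif6, and 2 higher, Eif1 and Eif4a2, in the hematogenous than in the tumor free group. The lower share was 16.7%. The higher share, 8.33%, was near that of all genes and is no result about these factors. Against the lymphatic group 9 initiation factors were lower in the hematogenous group, Eif3d, Eif4e and Eif5a with the smallest adjusted p. Eif1 and Eif4a2 were also higher in the lymphatic than in the tumor free group, though Eif4a2 and Hnrnpa1 lost that call when DESeq2 size factors replaced TMM. Among 5 genes listed for ribosome dormancy, the idle state of ribosomes, Ccdc124, Ifrd2 and Serbp1 were lower in the hematogenous than in the tumor free group. Their log2 fold changes were −1.92, −0.92 and −0.46 (edgeR adjusted p = 0.000363, 0.0356 and 0.0269). Of 19 regulators of mTORC1 and of the tract, Pdcd4, an inhibitor of translation initiation, and Tsc1, a brake on mTORC1, were higher in the hematogenous than in the tumor free group, with log2 fold changes of 0.53 and 0.65 (edgeR adjusted p = 0.00995 and 0.00593). This share, 10.5%, was near that of all genes. Ddit4, another inhibitor of mTORC1, had 25.2, 137, 85.4 and 114 CPM in the hematogenous and 20.2, 15.1, 27.7 and 29.0 CPM in the lymphatic libraries (log2 fold change 1.98 with SE 0.403, edgeR adjusted p = 0.00826), with hematogenous library 1 inside the lymphatic range. Against the tumor free group Ddit4 was called in neither the hematogenous nor the lymphatic group. None of the 7 tested chaperones of ribosomal proteins passed in any comparison with edgeR. At an unadjusted p under 0.05, 1 was lower in the hematogenous group against tumor free and 3 against lymphatic. Of all 16016 genes, 2023 and 2104 were lower at that threshold in these comparisons.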

How the data were processed

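Poly(A) RNA of NK cells sorted from lymph nodes was sequenced as stranded single-end reads of 120 bp, per the labels' protocols, 4 libraries per group by sample title. The authors deposited raw counts of reads per gene, made with HTSeq 2.0.2, HISAT2 2.1.0, Trimmomatic 0.39 and FastQC 0.11.9 on GRCm39, per the submitters' processing notes. Which annotation release and strand option were used is not given in the sources used here, so overlapping and antisense genes may share reads. The 5 summary lines of each file, 11.4% to 24.6% of reads outside features among them, were left out. Symbols from GENCODE M21 matched 91.9% of the gene IDs and 99.6% of the counts. Transcript length and GC content are those of the shortest principal transcript there (Rps20 has only a transcript of 3706 bases). Promoter bases are from RefSeq on GRCm38.p6.

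All 12 libraries entered 1 edgeR 4.0.16 fit in R 4.3.3 by group alone, with TMM scaling, the group-wise low count filter, robust quasi-likelihood and 9 residual degrees of freedom (biological coefficient of variation 0.429). SE is the log2 fold change over the square root of F. Libraries were not paired by replicate number in this fit. The members and lists were chosen with earlier results of these data known. Genes named in the text are the up to 6 members called per direction with the smallest adjusted p, the extremes of level and fold, and a fixed list of known members; Rps29, Rpl29 and Rpl36 were added for being called most widely or lying farthest, after their values were seen. Alternatives covered scaling, filters, DESeq2 1.42.0, voom in limma 3.58.1, a replicate block, thinning to 6654215 counts, length trend, B cell genes, pseudogenes and left-out libraries. GC correction and leaving out hematogenous libraries 1 and 3 together were chosen after seeing the data.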

Additional observations from a re-analysis of the deposited data

Results flagged for a closer look

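In 8 of 99 sets of 4 libraries examined, 1 library lay far from its group, where chance gives about 1 in 20. Lymphatic library 3 was far below the other lymphatic libraries for Rpl11 (584 CPM), Rpl3 (1060 CPM), Rplp0 (1099 CPM), Rps19 (299 CPM) and Rps4x (1035 CPM). Tumor free library 3 was far below the other tumor free libraries for Rpl10a (382 CPM) and Rps4x (1247 CPM). Hematogenous library 1 was far below its group for Rpl36al (14.1 CPM). These flags share libraries and are not independent of each other.

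Relative to the same tumor free libraries, the tumor models differed from each other in the direct test of hematogenous minus lymphatic for the members named by the smallest adjusted p. The log2 fold changes were −0.83 for Rps26, −0.90 for Rpl41, −0.87 for Rpl15, −0.76 for Rpl10, −0.81 for Rpl28 and −0.81 for Rpl7a, all lower in the hematogenous libraries (edgeR adjusted p from 0.0047 to 0.013). None of the 6 was called with hematogenous libraries 1 and 3 both left out.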

How the results depend on the processing

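No result changed direction to a call of the opposite sign. Against tumor free, the 32 members called in the hematogenous group became 49 with no filter on low counts, 12 with voom and quality weights and 12 with the B cell covariate. Leaving out 1 library gave 15 to 46. Of all genes, 6.87% were called lower in the main fit. This share was 3.53%, 5.16% and 3.54% with no filter, voom and the covariate, and 4.3% to 7.47% on leaving out 1 library. The 32 members became 18 with the GC trend removed (5.91% of all genes) and 7 without hematogenous libraries 1 and 3 (1.72%). Both settings were chosen after seeing the data. Against lymphatic, the 16 became 44 with no filter, 34 with voom, 0 without hematogenous libraries 1 and 3, and 1 to 35 on leaving out 1 library. Of all genes, 3.05%, 10.3%, 0.486% and 2.18% to 5.63% were lower in these settings, against 5.92% in the main fit. Between lymphatic and tumor free, the 1 became 4 with only the 8 libraries compared, 5 without hematogenous libraries 1 and 3, which belong to neither group, 0 with the B cell covariate, and 0 to 1 on leaving out 1 library. Of all genes, 0.572% were lower with only the 8 libraries, 0.0874% with the covariate and 0.163% to 0.644% on leaving out 1 library. For the fit without hematogenous libraries 1 and 3 no share of all genes was computed in this comparison. Its 5 calls were counted in either direction, so they cannot be set against the other counts. With a replicate block the counts were 43, 31 and 1 for hematogenous against tumor free, hematogenous against lymphatic, and lymphatic against tumor free, and 29, 23 and 1 with the GC trend removed as well. Of all genes, 6.61%, 6.06% and 0.337% were lower with the block, and 5.97%, 6.13% and 0.256% with the GC trend removed as well. The numbers showed no general pairing of the libraries (same-number correlations −0.07 to 0.06, own number best in 4 of 12). Replicate 2 was best with its own number in every pair of groups, and a batch shared by some numbers was not tested. Where these counts moved, the cause was not tested.

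Other scalings moved the median of all genes. Between hematogenous and lymphatic it was −0.01 with TMM and 0.10 with library size alone, the members' median −0.49 and −0.39, and the higher share of all calls 33.1% and 55.8%. Between lymphatic and tumor free the higher share was 84.7% with TMM and 73.2% with library size alone, and the members' median there, −0.01 with TMM, was −0.10 with library size alone and 0.15 with the B cell covariate. With all reads as the denominator the members held 2.40% in the hematogenous, 3.46% in the lymphatic and 3.65% in the tumor free group. A run of at least 6 C or T stood at 60.3% of member start sites, against 36.3% of all sites. Depth limits Rpl39l, Rpl3l and Rpl10l, which had too few counts for any statement.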
